A study of Gallus gallus with 3 samples.

Results

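The HOXD12/HOXD13 positive mesenchyme of the embryonic day 4 (E4) chicken forelimb was followed in 507 cells, out of 5157 E4 cells and 22815 cells of the whole series that passed the same filters. The forelimbs came from 2 embryos at E4, 3 at E6 and 3 at E10, were digested with collagenase and gave 1 pooled library per stage, and the labels name no genetic change or treatment. In the droplet method used, each mRNA copy carries a unique molecular identifier (UMI) and a barcode of its cell. Cells needed at least 1000 UMIs, of which at most 10% from 8 mitochondrial genes. A cell was taken as HOXD+ when it had at least 1 UMI of PRRX1, which marks limb mesenchyme, at least 2 UMIs of HOXD12 and HOXD13 together, and at most 2 UMIs summed over TFAP2A, FGF18, DLX5, GBX2 and LMO1. Cells with PRRX1 and 0 UMIs of HOXD12 and HOXD13 were the HOXD- cells, and there were 3675 of them. Measured values thus chose the HOXD+ cells. Levels of these genes are a description, and with 1 library per stage and 2 embryos that cannot be told apart, no test was made for any other gene. Intervals are 95% intervals that cover counting error only.

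HOX genes lie in clusters whose order along the chromosome follows the order in which they come on in the limb bud. In the first phase, genes of the HOXA and HOXD clusters up to group 11 are active in the bud and pattern the upper arm (stylopod) and forearm (zeugopod). In the second phase, HOXA13 and the last HOXD genes mark the future hand (autopod), where HOXA13 replaces HOXA11. HOXD12 and HOXD13 first appear at the posterior margin, around the cells that secrete Sonic hedgehog (SHH), while MEIS factors mark the proximal bud. Mesenchyme cells of the bud build the cartilage, tendons and other connective tissue (CT) of the limb.

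HOXD+ cells were 11.2% of the 4522 PRRX1+ E4 cells (10.3 to 12.2%, exact Clopper-Pearson). HOXD12 gave 1541 UMIs and HOXD13 358 UMIs in them. A HOXD12 UMI without a HOXD13 UMI was found in 269 cells, both genes in 232 and HOXD13 alone in 6. Their sum per cell ran from 2 to 16 UMIs with a median of 3. A further 263 PRRX1+ cells had 1 UMI and lay just outside the threshold, at a HOXD12 level of 192 CPM (UMIs of the gene scaled to a total of 1000000) against 347 CPM in the 162 cells with 2 UMIs just inside it. HOXD11 was at 211 CPM outside and 218 CPM inside, and HOXA11 at 91.7 and 79.1 CPM. Cells on either side of the threshold thus had close levels of HOXD11 and HOXA11, but only the 162 cells inside were held to the limit on the 5 genes. The limit on the 5 genes left out 77 cells with at least 2 UMIs of HOXD12 and HOXD13. Of the HOXD+ cells, 407 had 0 UMIs of the 5 genes, 70 had 1 and 30 had 2.

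Depth moved with the choice of cells. The median was 5053 UMIs (1265 to 12677) in HOXD+ cells and 3516 UMIs (1014 to 12753) in HOXD- cells. For this reason levels are given as CPM of UMIs summed over a group, beside ratios in which HOXD- cells were weighted to the depth of the HOXD+ cells over 4 bins. Cells that should lack the HOXD genes had few of their UMIs. A HOXD12 or HOXD13 UMI was seen in 1 of 101 PRRX1-negative cells with muscle markers (median 4800 UMIs) and in 0 of 53 with ectoderm markers (median 3860 UMIs), which allows a share of up to 6.72% by the exact interval. Haemoglobin UMIs placed the share of free RNA at 0.304% in HOXD+ and 0.273% in HOXD- cells. E4 and E6 cells shared 8 barcodes and E4 and E10 cells 21, of which HOXD+ cells held 1 and 1.

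HOXD11 and HOXA10 were high, while HOXA13, which marks the autopod, was nearly absent. HOXD11, which patterns the forearm and wrist, had 788 UMIs in HOXD+ cells and 338 in HOXD- cells, or 293 CPM (273 to 314) against 24.3 CPM (21.8 to 27.0), a log2 ratio of 3.59. It was present in 383 of 507 cells with a median of 1 and at most 9 UMIs, against 243 of 3675. HOXA10 was at 85.8 CPM (75.1 to 97.6) against 11.7 CPM (9.99 to 13.7), a log2 ratio of 2.87 that became 2.25 with HOXD- cells weighted for depth. HOXA13 had 13 UMIs in 11 of the 507 cells, or 4.83 CPM (2.57 to 8.26), and 4 UMIs in HOXD- cells, a log2 ratio of 4.07 that became 2.98 after weighting. Its share of cells was 2.17% in E4 HOXD+ cells and 45.3% among the 902 E6 cells chosen by the same rule, at 263 CPM. HOXA11, the forearm gene, was present in 150 HOXD+ cells (29.6%, at most 8 UMIs) and in 111 HOXD- cells (3.02%). Its level was 90.3 CPM (79.3 to 102) against 15.2 CPM (13.3 to 17.4), a log2 ratio of 2.57 that became 1.71 with HOXD- cells weighted for depth. HOXA11 and HOXA13 shared 7 cells. MEIS2 was still present in 414 HOXD+ cells (81.7%), at 441 CPM (416 to 466) against 573 CPM (560 to 586). HOXA13 and MEIS2 go against the autopod name at this stage, and the cells are called by the HOXD genes that chose them. HOXA11 does not settle the name, since it was at 315 CPM in the 11 cells with a HOXA13 UMI and 85.1 CPM in the others.

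**Figure D1:**
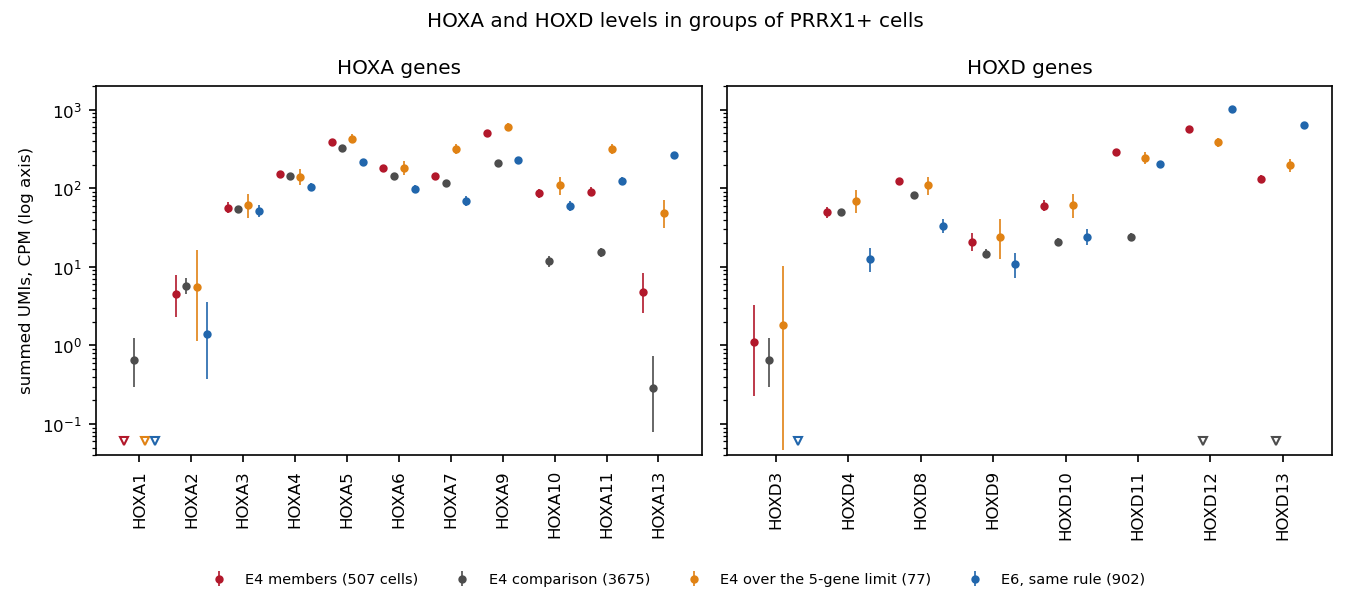
Levels of the HOXA and HOXD genes (summed UMIs in CPM, log axis) in E4 HOXD+ cells (red, the members), E4 HOXD- cells (grey, comparison), the 77 E4 cells over the limit of the 5 genes (orange) and E6 cells chosen by the same rule (blue). Bars are 95% Poisson intervals and open triangles are genes at 0 UMIs. HOXA13 lies at 4.83 CPM in the E4 HOXD+ cells and at 263 CPM in the E6 cells.

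Most of the few HOXA13 UMIs came from cells close to the limit of the 5 genes. The 407 HOXD+ cells with 0 UMIs of these genes had 2 HOXA13 UMIs (0.961 CPM), and the 100 cells with 1 or 2 had 11 UMIs (18.0 CPM, 8.99 to 32.2). MEIS2 went the other way, at 482 CPM (453 to 513) and 298 CPM (256 to 345). The 77 cells over the limit had a HOXA13 UMI in 20.8%, HOXA11 in 77.9% and MEIS2 in 29.9%, with a median of 6922 UMIs. MSX1, a homeobox gene of the growing tip, was at 567 CPM in them, against 80.6 CPM in HOXD+ cells and 104 CPM in HOXD- cells. The cells that the limit kept out thus held more of the HOXA13 signal than those it let in.

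The remaining HOX genes split by cluster and position. Over all genes, 7978 had at least 100 UMIs in the 2 groups together and were compared, of which 216 (2.71%) were at least 1.5-fold higher and 528 (6.62%) at least 1.5-fold lower in HOXD+ cells, with a median log2 ratio of 0.02. With HOXD- cells weighted for depth, 139 of the higher and 416 of the lower genes remained past this fold. All 8 compared genes of the HOXB and HOXC clusters were lower, with a median log2 ratio of -2.32, and all 8 stayed lower after weighting. HOXB5 had 66 UMIs in 50 HOXD+ cells and 2098 UMIs in 1379 HOXD- cells, or 24.5 CPM (19.0 to 31.2) against 151 CPM (144 to 157). HOXC8 had 9 against 625 UMIs, a log2 ratio of -3.75. Of 8 compared HOXA genes, the 3 of groups 9 to 11 were higher and the other 5, from HOXA3 to HOXA7, lay between log2 ratios of 0.04 and 0.36. HOXA9 was at 503 CPM against 209 CPM and was present in 87.8% and 38.4% of the cells. HOXD10 was at 60.2 CPM (51.3 to 70.2) against 21.0 CPM (18.6 to 23.5), while HOXD4 was at 49.4 CPM (41.4 to 58.6) and 50.2 CPM (46.5 to 54.0).

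Levels of several genes formed steps over the PRRX1+ cells. PRRX1+ cells with 0 UMIs of HOXD10 to HOXD13 (3233 cells, median 3400 UMIs) had 9.7 CPM of HOXA11. The level was 46.9 CPM in 442 cells with a HOXD10 or HOXD11 UMI but none of HOXD12 and HOXD13 (median 4478.5 UMIs), 91.7 CPM in the 263 cells with 1 UMI, and 90.3 CPM in HOXD+ cells. HOXA10 was at 7.6, 35.3, 73.7 and 85.8 CPM and HOXA9 at 174, 411, 531 and 503 CPM in the same order of groups, so HOXA9 and HOXA11 were no higher in HOXD+ cells than in cells with 1 UMI. BMP2, a signal of the bone morphogenetic protein family that is induced by SHH, was at 6.4, 12.1, 25.4 and 53.5 CPM. EBF2, a transcription factor gene, went down through 108, 74.1, 37.6 and 13.7 CPM, and PTN, which encodes the growth factor pleiotrophin, through 1277, 1000.4, 609 and 342 CPM. MSX1 had no such order, at 99.8, 128, 120 and 80.6 CPM. These groups are ordered by the HOXD genes that define them, and median depth differed between them. Among them, only HOXD+ cells were held to the limit on the 5 genes. The 77 cells over the limit were at 319 CPM of HOXA11, 600 CPM of HOXA9 and 567 CPM of MSX1. Whether the limit shaped the last step of these genes was not tested.

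**Figure D2:**
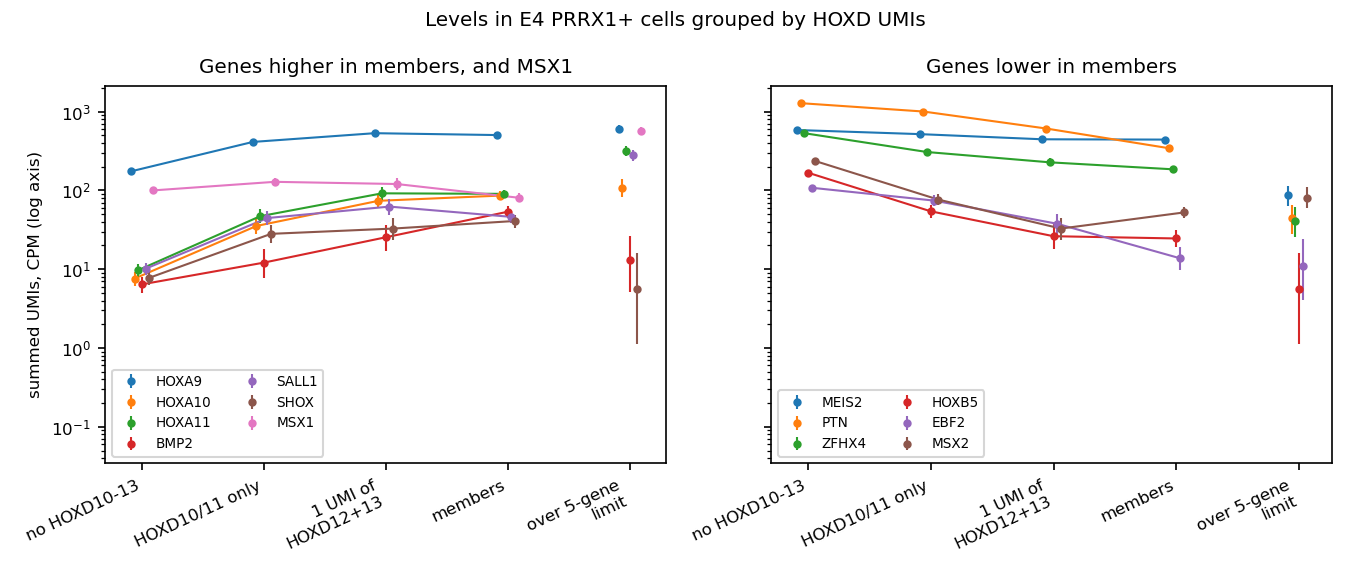
Levels (summed UMIs in CPM, log axis, with 95% Poisson intervals) in E4 PRRX1+ cells grouped by their HOXD UMIs, from cells with none of HOXD10 to HOXD13 to HOXD+ cells (members), joined by lines, and in the cells over the limit of the 5 genes. HOXA10 goes from 7.6 to 85.8 CPM and EBF2 from 108 to 13.7 CPM along the joined groups.

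Genes of the posterior limb were high. SHH had 26 UMIs in 15 HOXD+ cells, with at most 6 in 1 cell, and 1 UMI among 3675 HOXD- cells, or 9.66 CPM (6.31 to 14.2) against 0.0719 CPM (0.00182 to 0.400). Other PRRX1+ cells had 2 SHH UMIs among the 263 cells with 1 UMI of HOXD12 and HOXD13, and 3 UMIs in 2 of the 77 cells over the limit. No SHH UMI was found in 492 HOXD+ cells. Of 10 compared genes of the posterior and SHH response list, 7 were at least 1.5-fold higher and 3 lower, a median log2 ratio of 1.18, against 2.71% and 6.62% of all genes. Some genes are on more than 1 list, so the counts of the lists are not independent. SALL1, TBX2 and TBX3 are also on the distal list, BMP2 and GREM1 on the BMP list and OSR1 on the CT list, while LHX9 is on the distal and anterior lists. Further shared genes include WNT5A on the distal and WNT lists and EMX2 on the proximal and CT lists. EPHA3, EPHA4 and EPHA7 are on the distal and EPH lists. BMP2 had 144 UMIs in 112 HOXD+ cells and 101 UMIs in 90 HOXD- cells, or 53.5 CPM (45.1 to 63.0) against 7.26 CPM (5.91 to 8.82). HAND2, a transcription factor that acts upstream of SHH, was at 29.3 CPM (23.2 to 36.6) against 11.2 CPM (9.52 to 13.1). TBX3, a T-box gene of the limb margins, was at 24.1 CPM (18.6 to 30.8) against 8.91 CPM (7.41 to 10.6), and SALL1 at 46.1 CPM (38.3 to 54.9) against 15.2 CPM (13.3 to 17.4). PTCH1, the SHH receptor and a target of the pathway, was at 14.5 CPM (10.3 to 19.8) against 7.40 CPM (6.04 to 8.98). The log2 ratios of these 5 genes were 3.22, 1.08, 1.92, 1.14 and 0.86 with HOXD- cells weighted for depth. GREM1, a BMP antagonist, did not stay past the fold, at a log2 ratio of 0.61 that became 0.15. The 3 lower genes were TBX2 and the SHH co-receptors BOC and CDON. BOC was at 23.4 CPM (18.0 to 29.9) against 90.4 CPM (85.5 to 95.6).

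Most compared genes of the anterior list were low. Of these 8 genes, 7 were lower and none was higher, also after weighting, against 6.62% lower and 2.71% higher over all genes. All lists, among them this list with its GSC and EBF genes, were chosen with earlier results of these data known, so their counts are a description. GLI3, the SHH pathway repressor of the anterior bud, was at 134 CPM (121 to 149) and 132 CPM (126 to 138). LHX9 had 6 UMIs in HOXD+ cells and 211 in HOXD- cells, EBF2 37 and 1431, GSC 31 and 810, and IRX5 1 and 113. Among the 15 lowest ratios of all genes, EN1, which is on the dorsoventral list, had 1 UMI against 384, GATA5 13 against 825, and APOA1 13 against 796. EN1 is known from ventral ectoderm, but its UMIs lay in 243 of the PRRX1+ HOXD- cells. The paper lists EN1, GATA5 and APOA1 among the markers of an E4 CT cluster. Some HOXD- cells thus carried genes that were nearly missing from the HOXD+ cells, so the contrast is with a mixed group. Along the dorsoventral axis, LMX1B, which specifies dorsal mesenchyme, was present in 163 HOXD+ cells (32.1%), at 88.4 CPM (77.5 to 100) against 46.6 CPM (43.1 to 50.4), a log2 ratio of 0.92 and of 0.61 after weighting.

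Proximal genes were more often lower than higher, while the distal list gave no single direction. Of 11 compared proximal genes, 6 were lower and 1 was higher, and 5 and 1 after weighting. Over all genes, 6.62% were lower and 2.71% higher. MEIS1 was at 56.8 CPM (48.2 to 66.6) against 88.0 CPM (83.1 to 93.0), a log2 ratio of -0.63 that became -0.50 after weighting and so left the fold. ZFHX4, a zinc finger homeobox gene, was at 185 CPM against 498 CPM. SHOX, a gene of the middle limb segment, was the higher one, at 40.9 CPM (33.6 to 49.2) against 10.8 CPM (9.13 to 12.7). TBX5, which specifies the forelimb, was at 243 CPM and 207 CPM. Of 15 compared distal genes, 5 were higher and 4 lower, with a median log2 ratio of 0.07, and 4 and 4 after weighting. WNT5A, which drives outgrowth, was at 143 CPM (129 to 158) against 77.6 CPM (73.0 to 82.3), and SALL4 at 122 CPM (109 to 136) against 64.3 CPM (60.1 to 68.6). MSX2, in contrast, was at 52.4 CPM (44.1 to 61.8) against 212 CPM (204 to 220). The limit on the 5 genes was set for HOXD+ cells and not for HOXD- cells. The 77 cells it left out had 379 CPM of WNT5A, 144 CPM of SALL4 and 81.0 CPM of MSX2.

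In none of the FGF, BMP, WNT, retinoic acid and EPH lists did most genes pass the fold in the same direction. Over all genes, 2.71% were higher and 6.62% lower. In the FGF list, 4 of 14 compared genes were higher and 3 lower, but only 1 was higher after weighting. FGF10, the mesenchymal signal to the apical ridge, was at 48.7 CPM against 28.7 CPM, and DUSP6, a feedback gene of FGF signalling, at 44.6 CPM against 28.9 CPM, with weighted log2 ratios of 0.46 and 0.33. The 77 cells over the limit of the 5 genes had 191 CPM of FGF10 and 188 CPM of DUSP6. In the BMP list, 3 of 17 were higher and 4 lower. Besides BMP2, the BMP antagonist CHRDL1 was at 27.5 CPM (21.6 to 34.5) against 5.89 CPM (4.69 to 7.32), and its log2 ratio of 2.22 became 1.22 after weighting. BMP4 was lower, at 22.3 CPM against 47.3 CPM. In the WNT list, 1 of 21 was higher and 3 lower, among them the antagonist SFRP1 (65.0 CPM against 154 CPM). In the retinoic acid list, 1 of 13 was higher and 4 lower. ALDH1A2 and RDH10, enzymes of retinoic acid synthesis, were at 17.5 and 21.9 CPM in HOXD+ cells and at 46.9 and 78.1 CPM in HOXD- cells. The higher gene of this list, CRABP2, left the fold after weighting, with a log2 ratio of 0.45. In the list of EPH receptors, ephrins and adhesion genes, 1 of 20 was higher and 6 were lower. EPHB1, a receptor in cell sorting, was the higher gene, with a log2 ratio of 1.10 and of 0.87 after weighting.

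**Figure D3:**
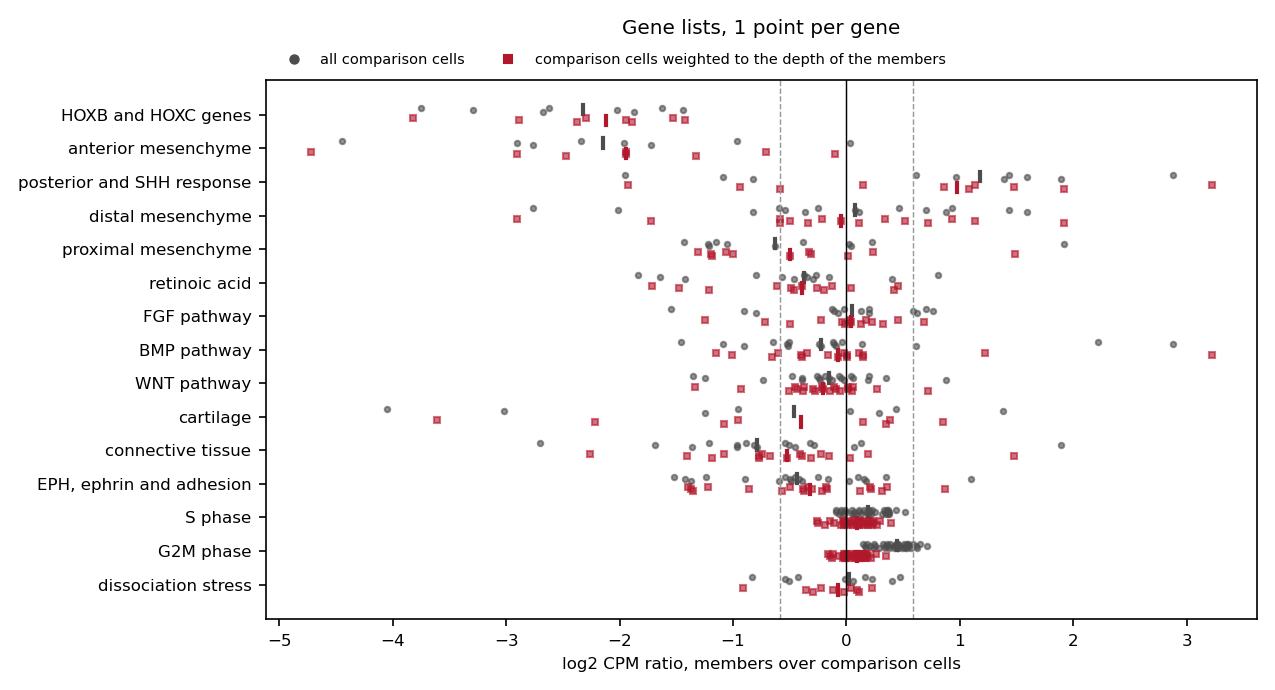
Log2 CPM ratio of HOXD+ (members) over HOXD- cells for each compared gene of 15 lists, with all HOXD- cells (grey circles) and with HOXD- cells weighted to the depth of the HOXD+ cells (red squares). Bars are medians and dashed lines the 1.5-fold limits. All 8 HOXB and HOXC genes lie to the left, and the median of the G2M phase genes moves from 0.44 to 0.09.

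Of 17 compared CT genes, 9 were lower and 1 was higher, and 8 and 1 after weighting, against 6.62% lower and 2.71% higher over all genes. COL1A1 was at 829.9 CPM against 1430.0 CPM, the proteoglycan gene LUM at 95.8 CPM (84.5 to 108) against 308 CPM (299 to 317), and POSTN had 26 UMIs against 876. The higher gene was OSR1, a zinc finger gene of irregular CT, at 17.8 CPM (13.1 to 23.6) against 4.82 CPM (3.73 to 6.12). Of 8 compared cartilage genes, SOX9, the first cartilage factor, was higher at 39.7 CPM (32.6 to 48.0) against 15.2 CPM (13.3 to 17.4), and 4 genes were lower, also after weighting. Its partners SOX5 and SOX6 were among them, with 64 and 4 UMIs in HOXD+ cells and 786 and 342 in HOXD- cells. COL2A1 had 9 UMIs and ACAN 0 UMIs in HOXD+ cells.

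A few cell cycle genes were higher, in a way that moved with the treatment of depth and with the mitochondrial limit. Of 41 compared G2M phase genes, 5 (AURKA, BUB1, HMMR, NEK2 and UBE2C) were at least 1.5-fold higher and none lower, with a median log2 ratio of 0.44. Over all genes, 2.71% were higher and 6.62% lower. After weighting none of the 41 was past the fold in either direction, and the median was 0.09. With every cell thinned to 2000 UMIs instead, AURKA, BUB1, HMMR and UBE2C stayed past the fold and NEK2 did not. With at most 5% mitochondrial UMIs, none of the 41 was past the fold, and the median was 0.20. Of 35 S phase genes, none was past the fold in either comparison. Of 10 compared dissociation stress genes, 1 was lower and none was higher.

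Several other genes at the high end belong to no list of limb axes. ENSGALG00000005024, which has no symbol in the files, had 106 UMIs against 108, or 39.4 CPM against 7.76 CPM. ELMO1, a regulator of cell migration, was at 33.1 CPM against 7.19 CPM, MAB21L2 at 26.0 CPM against 6.11 CPM, and STOM at 18.2 CPM against 4.67 CPM. UCH-L1, a ubiquitin hydrolase best known in neurons, had 521 UMIs in 275 HOXD+ cells and 719 UMIs in 593 HOXD- cells, or 194 CPM (177 to 211) against 51.7 CPM (48.0 to 55.6). GUCY1A2, a subunit of soluble guanylate cyclase, was at 65.8 CPM against 20.1 CPM and LRBA at 71.0 CPM against 22.8 CPM. The weighted log2 ratio was highest for ENSGALG00000005024, at 2.13, and 1.72 for STOM.

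Markers of other cell types were summed in both groups. In HOXD+ cells the 10 muscle-like markers reported here summed to 37.1 CPM, against 85.2 CPM in HOXD- cells, and 6 of them had a UMI. SLIT1 gave most of both sums, at 23.0 and 57.0 CPM. A further muscle-like marker is not reported here, and the order of the 2 sums depends on it. PAX7, LBX1, MYF5 and MYOG were at 0 UMIs in HOXD+ cells and MYOD1 at 1 UMI, and LBX1 and MYOG were at 0 UMIs in HOXD- cells too. PRRX1-negative cells with muscle markers had a HOXA11 UMI in 61.4% of 101 cells, and a HOXD11 UMI in 1 cell. Endothelial-like markers summed to 23.4 CPM against 13.2 CPM, blood-like markers to 37.5 CPM against 48.1 CPM, ectoderm-like markers to 26.7 CPM against 59.4 CPM, and neural crest-like markers to 122 CPM against 106 CPM with SOX10 at 0. FABP7 held 96.0% and 97.6% of the neural crest-like UMIs in HOXD+ and HOXD- cells, and ALAS2 76.2% and 83.7% of the blood-like UMIs. The part of these cell types in the levels was not tested.

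HOXD+ cells were not uniform among themselves. The variance of UMIs over cells was set against the value that counting alone gives at each cell's depth (dispersion index), for 3965 genes with at least 100 UMIs in HOXD+ cells, of which the median was 1.06. The highest index was that of VIM (8.71), followed by HIST1H103 (8.23), KPNA2 (7.63), PTN (7.57) and CENPF (6.00), of which HIST1H103, KPNA2 and CENPF follow the cell cycle. SMOC1 (4.03), MSX1 (3.75), ID1 (3.69), AKR1D1 (3.35) and EBF3 (3.19) were also among the 15 highest. MSX1 was confined to few cells. It was present in 82 cells with up to 13 UMIs, and the 51 cells with most UMIs held 85.7% of them. Of these 82 cells, 36 were among the 100 cells with 1 or 2 UMIs of the 5 genes of the limit. MSX1 was at 206 CPM in those 100 cells and at 43.7 CPM in the 407 cells with 0. PTN was present in 256 cells with up to 46 UMIs, and 54.6% of its UMIs lay in 51 cells.

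HOXA11 and MSX1 divided the HOXD+ cells along partly similar genes, and 47 cells had a UMI of both, so the 2 splits overlap. Cells with a HOXA11 UMI (150 cells, median 5852.5 UMIs) had less PTN than the 357 without (median 4848 UMIs), at 108 CPM (log2 ratio -2.08, -2.40 to -1.77) against 456 CPM. They also had less MEIS2, at 299.9 CPM against 509 CPM, and less MEIS1, at 32.9 CPM against 68.4 CPM. MSX1 was at 165 CPM against 39.7 CPM, SALL1 at 76.1 CPM against 31.5 CPM, CHRDL1 at 55.7 CPM against 13.8 CPM and DUSP6 at 65.9 CPM against 34.2 CPM in cells with and without HOXA11. HOXD11 gave a log2 ratio near 0 and HOXD12 one of -0.22 (-0.38 to -0.06). SHOX (-0.24, -0.89 to 0.37) and SOX9 (0.24, -0.37 to 0.83) had intervals that included 0 in this split. The 82 cells with an MSX1 UMI were high in SALL1 (log2 ratio 1.88), MSX2 (1.97), MYCN (1.44) and WNT5A (1.27) and low in SHOX (-1.72), SOX9 (-2.53), MEIS2 (-0.64) and PTN (-0.91). They held 11 of the 13 HOXA13 UMIs and 17 of the 26 SHH UMIs. SALL1 and CHRDL1 were also high in the 77 cells over the limit, at 278 and 169 CPM. So were MSX1 and HOXA11, at 567 and 319 CPM, though their own UMIs chose the cells of the splits. The same genes were higher in HOXD+ cells with 1 or 2 UMIs of the 5 genes than in those with 0. The 163 cells with LMX1B had more SOX9 (59.5 CPM against 28.5 CPM) and less EBF3 (61.6 CPM against 168 CPM). EBF3 was also lower in cells with a HOXA11 UMI, at 73.8 CPM against 156 CPM. PTN was lower with LMX1B too (log2 ratio -0.50, -0.71 to -0.29). SHH cells were few, and the 15 of them had 15 BMP2 UMIs (185 CPM against 49.4 CPM without SHH). PTCH1 had a UMI in 0 of these 15 cells and in only 37 of all 507 HOXD+ cells, so 15 cells are too few to read the 0.

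**Figure D4:**
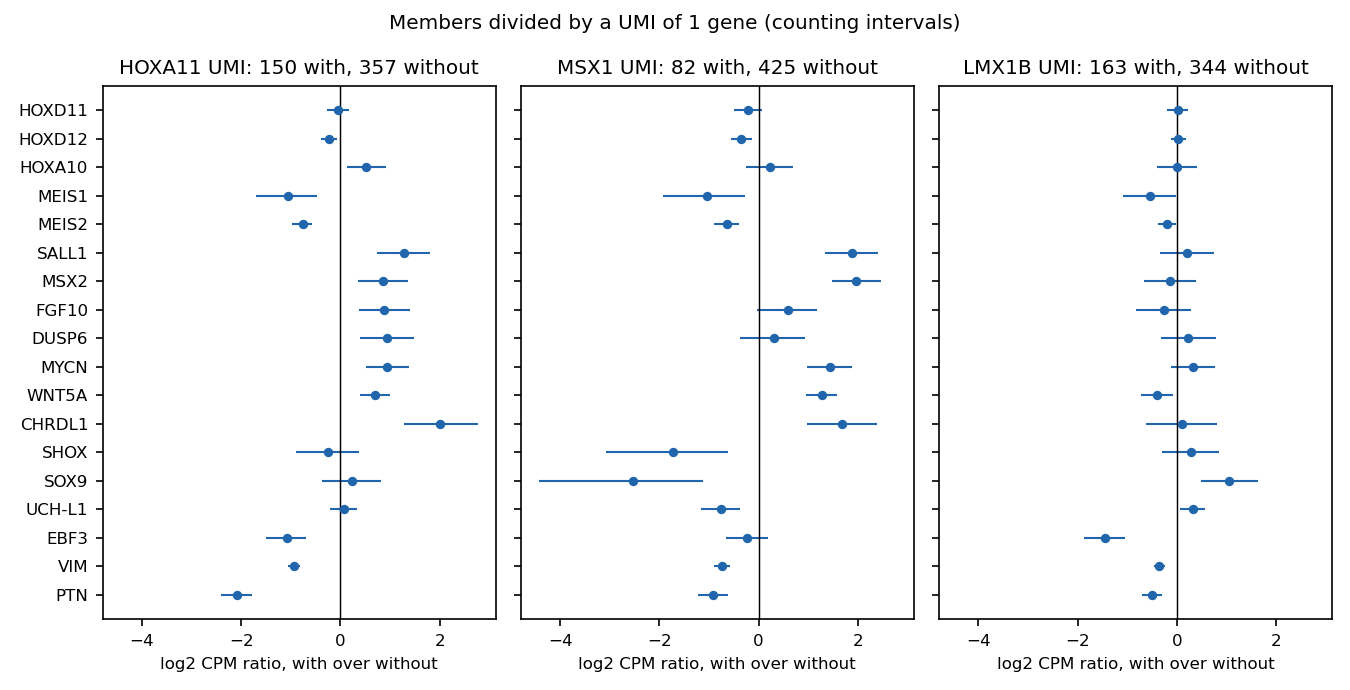
Log2 CPM ratio of HOXD+ cells with over those without a UMI of HOXA11, MSX1 or LMX1B, with 95% counting intervals. PTN, MEIS1 and MEIS2 lie to the left and SALL1 and MSX2 to the right for both HOXA11 and MSX1. EBF3 lies to the left for HOXA11 and LMX1B, and SOX9 to the right for LMX1B.

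The same rule at E6 chose 902 of 2040 PRRX1+ cells (44.2%, 42.0 to 46.4%), and their profile differed in part. E6 is another single library of lower depth (median 3056.5 UMIs in the chosen cells), so the values stand side by side. HOXD11 and BMP2 were higher in the chosen cells at both stages, with log2 ratios of 3.59 and 1.76 for HOXD11 and 2.88 and 0.62 for BMP2. HAND2 gave 1.39 and 1.55, and PTN -1.85 and -1.68. MEIS2 had 441 CPM in E4 HOXD+ cells and 41.2 CPM in the E6 cells, and its log2 ratio was -0.38 at E4 and -1.21 at E6. HOXA10 (2.87 and -0.63) and HOXA11 (2.57 and -0.42) were higher in the chosen cells at E4 and lower at E6. RDH10 went the other way, at -1.83 and 1.31. HOXA13 was at 263 CPM in the chosen E6 cells and 216 CPM in the E6 cells without HOXD12 and HOXD13.

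**Figure D5:**
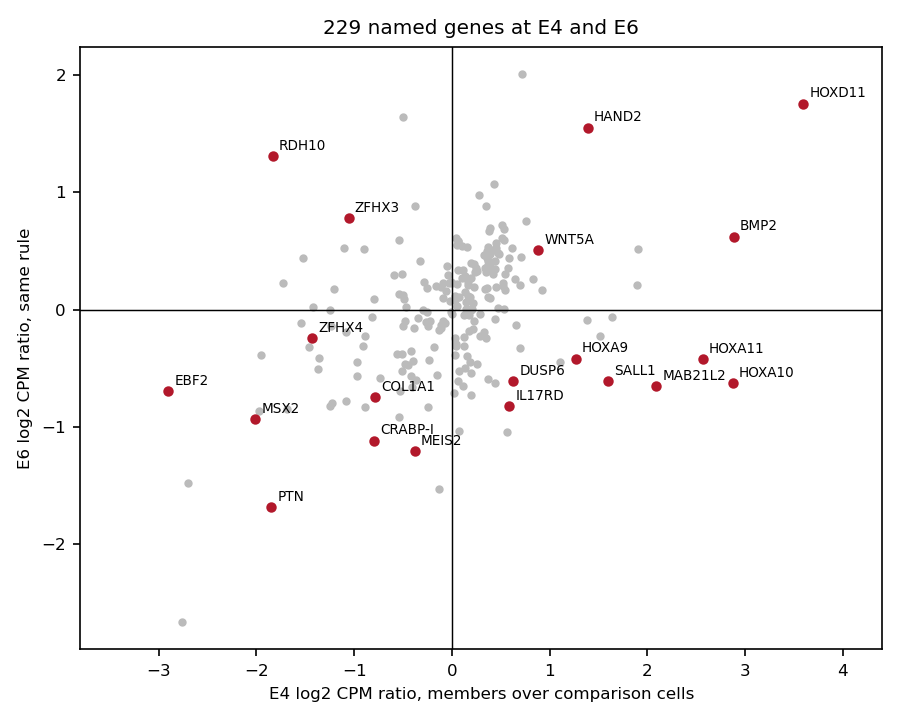
Log2 CPM ratio of cells chosen by the rule over PRRX1+ cells without HOXD12 and HOXD13 at E4 (x axis) and E6 (y axis) for 229 named genes with at least 100 UMIs in both groups together at each stage. HOXD11, BMP2 and HAND2 lie above 0 on both axes, and HOXA10 and HOXA11 lie above 0 at E4 and below 0 at E6.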

How the data were processed

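Deposited values were UMI counts per gene and barcode that the authors made with Cell Ranger 3.0.2 (STAR) on GRCg6a, before any filter on cells. Per the labels, each stage was 1 library. Members and gene lists were chosen with earlier results of these data known. The 16 genes of the rule were left out of counts of genes. Counts were summed per group with Python 3.11.15, numpy 2.4.6 and scipy 1.17.1, with exact Poisson intervals for CPM and exact conditional binomial intervals for ratios. Cells were not replicates, so no p-value was computed. Scripts were tested on simulated data. HOXA13, MEIS2 and 10 further genes were matched by identifier or synonym, and 415 of 460 list genes were found. Named genes were the list genes, the 15 highest and 15 lowest ratios and the 15 highest dispersion indices. No doublet caller was run, and 2 filters on multiplets were alternatives, beside limits, depth weighting, thinning to 2000 UMIs, free RNA and scaling. Some genes are not reported here.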

Additional observations from a re-analysis of the deposited data

Results flagged for a closer look

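At E10 the rule chose 184 of 4181 PRRX1+ cells, or 4.4%, a stage that no comparison above used. The median depth of these cells was 1616.5 UMIs, against 5053 UMIs in the E4 HOXD+ cells.

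For 7 of the named genes reported here, the ratio of chosen to HOXD- cells was at least 1.5-fold in opposite directions at E4 and E6. Their counting intervals lay on opposite sides of 0, and each had at least 100 UMIs in the 2 groups together at each stage. Other genes with intervals on opposite sides of 0, such as HOXA11 (2.57 and -0.42), did not meet these limits. The difference between the stages was not tested, since each stage had 1 library. Higher at E4 and lower at E6 were HOXA10 (log2 ratio 2.87 and -0.63), SALL1 (1.60 and -0.61), the FGF feedback genes DUSP6 (0.63 and -0.61) and IL17RD (0.59 and -0.82) and MAB21L2 (2.09 and -0.65). The E4 ratios of DUSP6 and IL17RD became 0.33 and 0.22 with HOXD- cells weighted for depth, inside the 1.5-fold limit. ZFHX3 (-1.06 and 0.78) and RDH10 (-1.83 and 1.31) were lower at E4 and higher at E6.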

How the results depend on the processing

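The share of PRRX1+ cells that were HOXD+ (11.2%) followed the limits. It was 16.6% with at least 1 UMI of HOXD12 and HOXD13, 7.63% with at least 3, 12.2% with 2 UMIs of PRRX1, 9.0% with 0 UMIs of the 5 genes, 12.9% with no limit on them, 15.4% with at most 5% mitochondrial UMIs, 10.3% without the deepest 5% of cells and 8.32% without cells with 2 or more UMIs of other cell types. The same filter with fewer muscle-like markers, chosen after seeing the data, gave 11.3%. The 216 higher and 528 lower genes became 337 and 833 with a minimum of 50 UMIs per gene, 96 and 226 with 300 UMIs, 1693 and 1679 with 1 UMI in each group, 58 and 217 at 2-fold, and 125 and 303 with at most 5% mitochondrial UMIs. The log2 ratio of HOXA11 (2.57) was 1.99 with at most 5% mitochondrial UMIs, 3.08 with no limit on the 5 genes, 3.31 with the same limit in HOXD- cells, 1.71 with depth weighting and 2.88 without cells with UMIs of other types. That of MEIS2 (-0.38) was -0.48 with at most 5% mitochondrial UMIs, -0.25 with 0 UMIs of the 5 genes, -0.59 with no limit and -0.26 after thinning to 2000 UMIs. That of HOXA13 (4.07) was 1.74 with 0 UMIs of the 5 genes, on 2 UMIs. For 53 other genes and 15 alternatives, 720 of 795 values stayed inside the counting interval, 74 lay outside it and 1 changed sign, GLI1 after thinning (-0.16, on 3 UMIs). The causes were not tested. No paired analysis was possible because each stage had 1 library. A split of the embryos by a W-linked gene was not run, since all 507 HOXD+ cells had a UMI of Wpkci-7. With 29.6% of cells holding a HOXA11 UMI at this depth, a cell without one cannot be read as lacking the gene.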
